A study of Mus musculus with 4 samples.

Results

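The interleukin-1 (IL-1) family genes described here are 10 cytokines and receptors, namely Il1a, Il1b, Il1rn, Il1r1, Il1r2, Il1rap, Il18, Il33, Il1rl1 and Il18r1. They were chosen by gene symbol, and all 10 were found among the 24532 genes measured by RNA sequencing of mouse articular cartilage. The 4 samples were sham and injured cartilage, each from young and from adult wild type C57BL/6 mice (male in the study's methods), with 1 library per group. The young mice were 3 weeks old. For the adult mice an age of 12 weeks stands in the sample titles and 14 weeks in their characteristics, whereas the methods of the study give 10 weeks. The injury was a needle-made full-thickness cartilage injury of the patellar groove in those methods, whereas the labels name DMM surgery (destabilization of the medial meniscus). Both injured samples and the young sham sample are labelled day 3, and the adult sham sample is labelled days 3 to 14. Each library was made from pooled cartilage of 10 injured or 5 control mice, so no difference between libraries has a replicate check, and no test between groups was possible.

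IL-1α and IL-1β, encoded by Il1a and Il1b, are inflammatory cytokines that bind the receptor IL-1R1, which then recruits the accessory protein IL-1RAP and signals through MyD88. The pathway has 2 natural brakes. The receptor antagonist (Il1rn) occupies IL-1R1 without activating it, and the decoy receptor IL-1R2 binds IL-1 without signalling. IL-18 and IL-33 are related cytokines that act through IL-18R1 and through ST2, the product of Il1rl1. In cartilage, IL-1 is best known for inducing matrix proteases and nitric oxide in chondrocytes. IL-1β and IL-18 are made as precursors that caspase-1 cleaves in the inflammasome, so that transcript levels do not give the amount of active cytokine.

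The stretches of genome just upstream of Il1b and of Il1rl1 are shown because these genes differed most between young and adult injured cartilage. They come from RefSeq on GRCm38.p6, the assembly of mm10, and all 10 genes matched an entry, with 17 start sites in all. Gene positions given later are on the same assembly. RefSeq's table gives 2 start sites for Il1rl1, of which the upstream one is known from mast cells and other blood cells and the downstream one from fibroblasts. The gene of the expression table begins further upstream, at 40404864 on chromosome 1. That table gives 1 value per gene and does not separate the products of different start sites. Capitals mark a match to TTNNGNAA, the letters bound by C/EBP factors, in Il1b, and a match to AGATAA, the letters bound by GATA factors, in Il1rl1. Each sequence reads 5′ to 3′ towards the gene. The Il1b stretch has 225 bases, because the rest of its 250-base window lies within the outermost annotated start of the gene.
Il1b, chr2:129371165-129371389, minus strand: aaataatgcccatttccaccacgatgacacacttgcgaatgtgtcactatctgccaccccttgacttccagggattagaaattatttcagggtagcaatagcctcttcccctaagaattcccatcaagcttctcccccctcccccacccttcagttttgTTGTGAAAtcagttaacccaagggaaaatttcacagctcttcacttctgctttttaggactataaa
Il1rl1 upstream start, chr1:40429320-40429569, plus strand: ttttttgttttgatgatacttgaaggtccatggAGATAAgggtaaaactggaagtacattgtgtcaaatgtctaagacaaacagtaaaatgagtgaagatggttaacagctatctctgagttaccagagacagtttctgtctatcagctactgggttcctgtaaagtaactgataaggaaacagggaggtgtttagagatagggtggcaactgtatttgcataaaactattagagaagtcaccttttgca
Il1rl1 downstream start, chr1:40439379-40439628, plus strand: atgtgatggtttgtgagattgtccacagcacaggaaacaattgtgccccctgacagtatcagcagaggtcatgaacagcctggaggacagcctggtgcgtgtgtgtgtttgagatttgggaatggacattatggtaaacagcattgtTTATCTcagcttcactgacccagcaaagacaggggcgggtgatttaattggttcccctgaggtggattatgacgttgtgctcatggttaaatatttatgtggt

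Both strands of the 250 bases upstream of each start site were searched for 5 motifs. AGATAA was found upstream of both Il1rl1 start sites and of no other member, and it occurs in 9.99% of all 32851 windows of this length. TTNNGNAA was found in 10 of the 17 windows, in 6 of the genes, and in 36.9% of all windows. The NF-κB motif occurred in 1 window, that of Il1r1, against 7.25% of all windows. TGANTCA, the AP-1 letters, was found for Il1a and Il1rn (6.75% of all windows), and TTCNNNGAA, the STAT letters, for Il1r2 and Il18r1 (7.02% of all windows). The NF-κB match of Il1r1 overlapped a TTNNGNAA match, the 1 overlap between different motifs in these windows. These matches describe the sequence only.

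Expression was given as FPKM, fragments per kilobase of transcript, scaled to the mapped fragments of a library. FPKM are per length, so levels may be compared between genes as well as between libraries. Changes are log2 ratios of FPKM + 1, and a gene was counted as changed at 2-fold or more. Because of the added 1 FPKM, changes of weakly expressed genes come out too small. The FPKM of all genes summed to between 469939 and 533468 per library, and the lowest values tended to fall on steps that, if 1 step is 1 fragment, correspond to about 25400000 to 30600000 fragments. The steps were blurred (mean cosine between 0.277 and 0.358, where 1 would be exact steps), so fragment numbers for single genes are rough estimates. The general level also shifted. Over the 10891 genes that reached 1 FPKM in every library, log2 ratios of injured to sham cartilage centred on −0.04 in young and 0.23 in adult mice, those of adult to young sham on −0.30, and those of young to adult injured on 0.07. The ratios of the members are to be read against these shifts. All 10 chondrocyte markers examined were at 1 FPKM or more in every library, with Col2a1, the gene of type II collagen, between 3173 and 9349 FPKM. In adult against young sham cartilage, however, 6 of these 10 were at least 2-fold lower, such as Matn3 (391.8 to 2.30 FPKM) and Col9a1 (955.4 to 40.9 FPKM), while Comp was higher (1324 to 7203 FPKM). Prg4, the lubricin gene, was at 2049 and 3565 FPKM in the sham libraries and at 421.3 FPKM in young injured cartilage. Markers of macrophages, neutrophils, endothelium and fibroblasts were also present. In pooled tissue, more cells of a type and more RNA per cell cannot be told apart.

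After injury, 5 of the 10 members rose at least 2-fold in young cartilage, which were Il1b, Il1rn, Il1r1, Il1r2 and Il1rl1. In adult cartilage Il1b, Il1rn, Il1r2, Il1rl1 and Il18r1 rose, again 5 of 10. None was 2-fold lower at either age. Of all 18181 genes above 0 in at least 1 library, 4.57% were at least 2-fold higher and 1.27% at least 2-fold lower after injury in young mice, and 6.9% and 1.46% in adult mice. With 0.1 FPKM added, 8 members rose in young and 7 in adult mice, where 1817 and 2882 of all genes did. With 5 FPKM added, 2 rose in young (Il1b and Il1rl1) and 3 in adult mice (Il1b, Il1rn and Il1r2), where 343 and 434 of all genes did. The adult split of 1255 higher and 266 lower genes became 866 and 455 with median-of-ratios scaling, and 725 and 489 with quantile normalization. The members had a median ratio (log2) of 1.13 in young and 1.00 in adult mice, where the median of all genes tested was 0.00 and 0.14. The adult median was the higher one when 0.1 FPKM was added (2.50 and 3.04) and on the TPM scale (1.40 and 1.63), and the lower one when 5 FPKM was added (0.43 and 0.36). The number of members at 1 FPKM or more was 3 in each sham library and 8 in each injured library. The ratio was larger in adult mice for 7 members and in young mice for Il1r1, Il18 and Il1rl1. The general level leaned to the adult as well (−0.04 in young and 0.23 in adult mice, as above). The share of all genes with the larger ratio in adult mice was not counted. For Il1b and Il1rl1 the injury ratio differed by 1 or more between the ages, in opposite directions, and for Il1rap by just under 1. The number of members that differed by 1 or more was also 2 with median-of-ratios scaling and with quantile normalization, 4 on the TPM scale, 5 with 0.1 FPKM added and 1, Il1b, with 5 FPKM added.

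**Figure D1:**
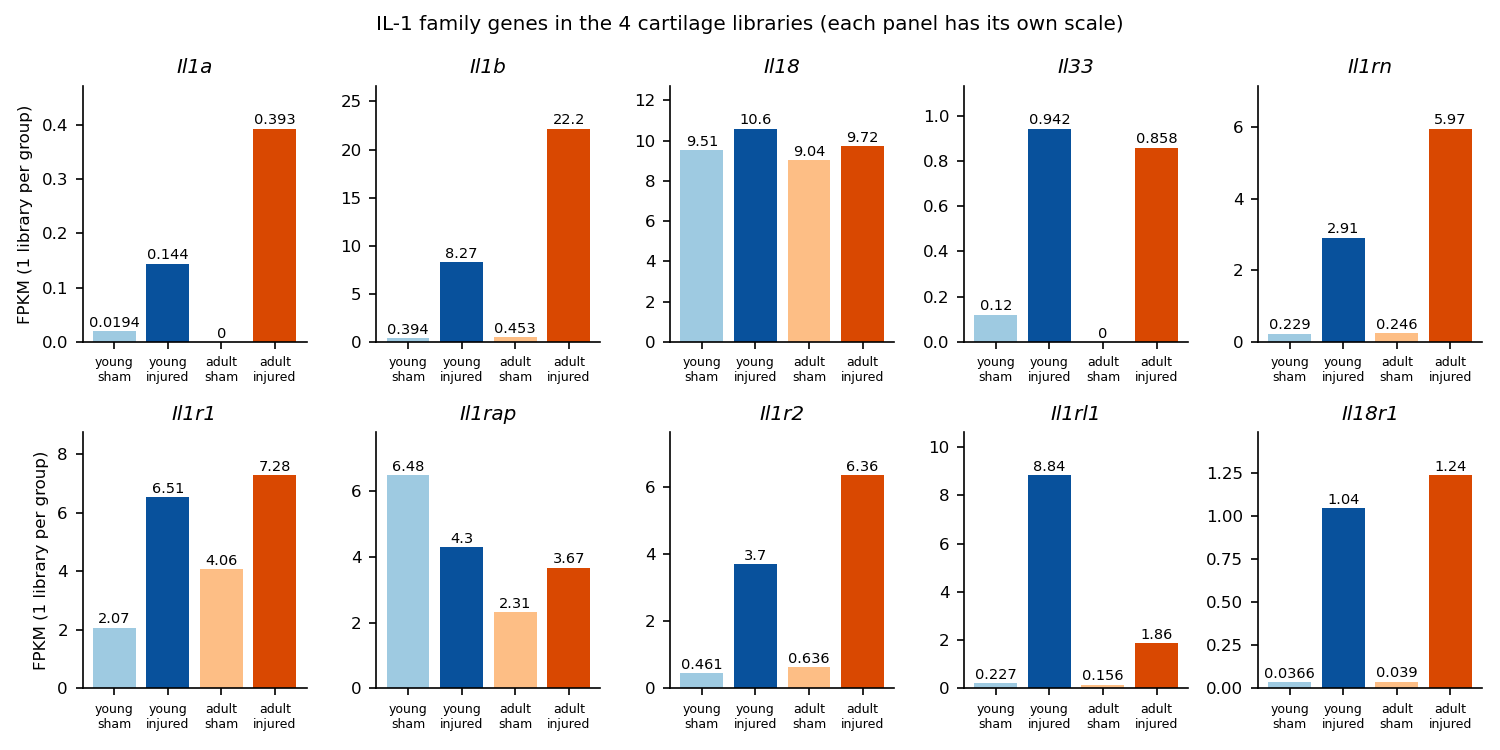
Expression of the 10 IL-1 family genes in FPKM (vertical axis, starting at 0, with a separate scale for each gene) in the sham and injured libraries of young and adult mice. Each bar is 1 library and has no error bar. Il1b is highest in adult injured cartilage at 22.2 FPKM, Il1rl1 in young injured cartilage at 8.84 FPKM, and Il18 lies between 9.04 and 10.6 FPKM in all 4 libraries.

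Il1b (Entrez Gene 16176, chromosome 2, 129364569 to 129371164) stood at 0.394 FPKM in the young and 0.453 FPKM in the adult sham library, and at 8.27 FPKM in the young and 22.2 FPKM in the adult injured library. Both sham libraries were low and close to each other, and the adult injured library was the highest of the 4. Injury gave log2 ratios of 2.73 (young) and 4.0 (adult). Between the injured libraries the log2 ratio was −1.32 for young against adult mice, so that Il1b was the single member at least 2-fold lower in young injured cartilage, where 1.8% of all genes were. On the steps described above, the 4 values correspond to about 13.9, 291.2, 18.8 and 763.4 fragments.

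Il1a (Entrez Gene 16175, chromosome 2, 129299609 to 129310186) was at 0.0194 FPKM in the sham and 0.144 FPKM in the injured library of young mice, and at 0 and 0.393 FPKM in those of adult mice. These values correspond to about 1, 7.4, 0 and 19.7 fragments, so that both ages rest on very few fragments in sham cartilage. The log2 ratio was 0.17 in young mice and 1.03 with 0.1 FPKM added, and none is given for adult mice, where sham was listed at 0. Between the injured libraries the ratio of young to adult was −0.28, or −1.015 with 0.1 FPKM added. Levels of Il1a were thus far below those of Il1b in both injured libraries. Il1a was the lowest of the 10 members in each of the 4 libraries, with Il33 also listed at 0 in adult sham cartilage.

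Il18 (Entrez Gene 16173, chromosome 9, 50554700 to 50581841) was the most abundant member in both sham libraries. Its levels with and without injury were 10.6 and 9.51 FPKM in young mice and 9.72 and 9.04 FPKM in adult mice. The highest value exceeded the lowest by a factor of 1.17, the smallest range of any member. Injury gave log2 ratios of 0.14 (young) and 0.09 (adult), and the adult value turned to −0.16 after median-of-ratios scaling, which evens out the general level, and to −0.18 after quantile normalization, which gives every library the same distribution.

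Il33 (Entrez Gene 77125, chromosome 19, 29925113 to 29960718), an alarmin released by damaged stromal and endothelial cells, was at 0.120 FPKM in young sham and 0.942 FPKM in young injured cartilage. In adult mice it was listed at 0 in sham and reached 0.858 FPKM in injured cartilage. The injured libraries were alike and both were higher than the sham libraries. Their values correspond to about 62 and 55 fragments. Neither age passed 2-fold on the log2 scale of FPKM + 1, where the ratio was 0.79 in young mice and none is given against the 0 of adult sham. Both ages did pass on the TPM scale, the young with 1.15, and with 0.1 FPKM added in place of 1 FPKM, the young with 2.25.

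The antagonist gene Il1rn (Entrez Gene 16181, chromosome 2, 24336860 to 24351491) went from 0.229 FPKM in the young sham to 2.91 FPKM in the young injured library, and from 0.246 to 5.97 FPKM in the adult libraries. The order of the libraries was the same as for Il1b. Its log2 ratios were 1.67 (young) and 2.48 (adult). With 5 FPKM added these were 0.598, no longer 2-fold, and 1.064. Between the injured libraries the log2 ratio of young against adult was −0.83. That ratio passed 2-fold on the TPM scale (−1.083) and with 0.1 FPKM added (−1.009). Relative to Il1b in the same library, Il1rn was at a ratio of FPKM of 0.58 in young sham and 0.54 in adult sham cartilage. In injured cartilage this ratio stood at 0.35 (young) and 0.27 (adult). The sham ratios rest on few fragments, about 4.3 to 14.8 (young) and 5.5 to 18.6 (adult) for Il1rn, depending on the transcript, against 13.9 and 18.8 for Il1b.

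Il1r1 (Entrez Gene 16177, chromosome 1, 40222480 to 40316201), the signalling receptor, went from 2.07 to 6.51 FPKM with injury in young mice and from 4.06 to 7.28 FPKM in adult mice. The injured libraries were close, while the sham libraries differed by a factor of 1.96. It rose 2-fold or more in young mice only, with log2 ratios of 1.29 (young) and 0.71 (adult), and the difference was not tested. The log2 ratio of adult against young sham was 0.72, while median-of-ratios scaling gave 1.02 and quantile normalization 1.06, which both pass 2-fold.

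The decoy receptor gene Il1r2 (Entrez Gene 16178, chromosome 1, 40084692 to 40125230) was at 0.461 FPKM in sham and 3.70 FPKM in injured cartilage of young mice, and at 0.636 and 6.36 FPKM in that of adult mice. It rose at both ages, with log2 ratios of 1.68 and 2.17. With 5 FPKM added these were 0.67, no longer 2-fold, and 1.01. Relative to Il1r1, its FPKM stood at 0.22 in young sham and 0.16 in adult sham cartilage. After injury this ratio stood at 0.57 (young) and 0.87 (adult). In adult injured cartilage the decoy transcript thus came close to the level of the signalling receptor. The accessory Il1rap stood at 3.12 times Il1r1 in young sham cartilage and at 0.66, 0.57 and 0.50 times in young injured, adult sham and adult injured cartilage.

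Il1rap (Entrez Gene 16180, chromosome 16, 26581509 to 26730128), the accessory protein shared by the receptors for IL-1 and IL-33, had 6.48 FPKM in the young sham library against 4.30 FPKM after injury, and 2.31 FPKM in the adult sham library against 3.67 FPKM after injury. It was the one member that was highest in young sham cartilage. The injury ratios (log2) were −0.50 (young) and 0.50 (adult), neither of them 2-fold. Adult sham cartilage had less Il1rap than young sham, with a log2 ratio of −1.18. This was the single member to pass 2-fold between the sham libraries, where 10.6% of all genes were at least 2-fold lower and 2.66% at least 2-fold higher in the adult, and the ratio was −0.88 after median-of-ratios scaling. That scaling moved the split of all genes from 484 higher and 1934 lower to 972 and 1009. Of the chondrocyte markers, 6 of 10 were likewise at least 2-fold lower in adult sham and 1, Comp, was higher, and the part of this in the difference of Il1rap was not tested. A membrane-bound and a soluble protein form arise from this gene and are not separated in the values.

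Il1rl1 (Entrez Gene 17082, chromosome 1, 40404864 to 40465418) encodes ST2, the receptor for IL-33, as a membrane-bound form and as a soluble form that traps IL-33. Its FPKM were 0.227 in the young sham, 8.84 in the young injured, 0.156 in the adult sham and 1.86 in the adult injured library. Young injured cartilage stood far above the other libraries. It rose at both ages, with log2 ratios of 3.00 (young) and 1.31 (adult). With 5 FPKM added these were 1.405 and 0.413, and the adult value was no longer 2-fold. On FPKM without an added 1, the level in injured cartilage was 38.9 times that of sham in young and 12.0 times in adult mice, but from sham values of about 7.2 to 31.4 and 5.8 to 25.2 fragments, depending on the transcript. Between the injured libraries the log2 ratio was 1.78 for young against adult mice, and Il1rl1 was the single member at least 2-fold higher in young injured cartilage, where 3.09% of all genes were. This ratio was 1.70 after median-of-ratios scaling. In young injured cartilage Il1rl1 exceeded Il1b, Il1r1 and Il1r2, and only Il18 was higher among the members. Its ratio to Il33, the ligand, was 9.39 (young) and 2.17 (adult) after injury.

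Il18r1 (Entrez Gene 16182, chromosome 1, 40465552 to 40500854), the ligand-binding receptor for IL-18, was barely detected in sham cartilage, at 0.0366 FPKM (young) and 0.0390 FPKM (adult), and stood at 1.04 FPKM (young) and 1.24 FPKM (adult) after injury. The sham libraries were near 0 and the injured libraries were alike. Its log2 ratio was 0.98 in young mice, just under 2-fold, and 1.11 in adult mice, just over it. The adult value was 0.995 with quantile normalization, and the young value passed on the TPM scale (1.46) and with 0.1 FPKM added (3.06). Il18rap, which completes the IL-18 receptor, went from 0.472 to 1.56 FPKM (young) and from 0.370 to 1.45 FPKM (adult), with ratios of 0.80 and 0.84. Il18bp, whose product binds and neutralizes IL-18, went from 4.28 to 7.98 and from 3.56 to 5.26 FPKM. Its ratio to Il18 went from 0.45 to 0.75 in young mice and from 0.39 to 0.54 in adult mice. Of the 6 other receptor and binding protein genes examined, among them Il18rap, Il18bp and Il1rl2, none passed 2-fold at either age, and their median ratio was 0.62 (young) and 0.44 (adult). With 0.1 FPKM added 3 of them passed 2-fold at each age, and on the TPM scale 1 did. Il1rl2, Il1rapl1 and Il1rapl2 stayed below 1 FPKM in all libraries, so they could not reach 2-fold with 1 FPKM added.

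**Figure D2:**
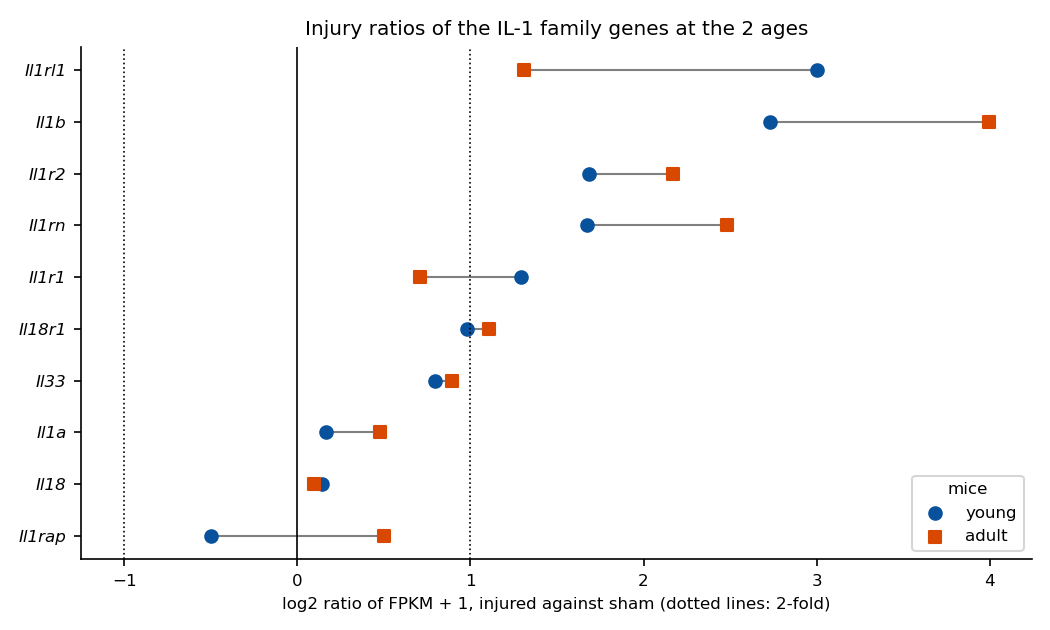
Log2 ratio of FPKM + 1 for injured against sham cartilage (horizontal axis) for each of the 10 genes in young (circles) and adult mice (squares), each from 1 library per group, with dotted lines at 2-fold. Il1b lies further right in adult mice (2.73 in young, 4.0 in adult), Il1rl1 in young mice (3.00 and 1.31), and Il1rap lies on either side of 0.

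In the genome, 4 of the members lie in 1 cluster of receptor genes. Il1r2, Il1r1, Il1rl2, Il1rl1, Il18r1 and Il18rap follow each other within 467.0 kb of chromosome 1 with no other gene of the expression table between them. All 6 genes had higher values in injured than in sham cartilage at both ages, as deposited and under each of 3 other scalings, with the lowest log2 ratio at 0.47 in young mice (Il1rl2) and 0.36 in adult mice (Il1r1), both after quantile normalization. The sizes were unequal, and Il1rl1 had the highest in young mice. Over all genes tested the median ratio was 0.00 (young) and 0.14 (adult) as deposited, and the share of all genes above 0 was not counted. Il1rl1 ends next to where Il18r1 begins, on the same strand. Il1rl2, the receptor for the IL-36 cytokines, stayed below 1 FPKM, with 0.0730 and 0.611 FPKM in young and 0.0499 and 0.539 FPKM in adult sham and injured cartilage. On one side, Map4k4, a kinase gene, had ratios of 0.53 (young) and 1.39 (adult). On the other side, Slc9a4 and Slc9a2, which encode sodium-proton exchangers, were at 0.266 FPKM or less in every library, too low for a ratio of FPKM + 1 to move far from 0. Il1a and Il1b lie near each other on chromosome 2. Il1rn lies apart from them, on the same chromosome beside the IL-36 genes. There, Il1f9 (IL-36γ) went from 0.495 to 1.64 FPKM with injury in young mice and from 0.256 to 2.21 FPKM in adult mice, whereas Il1f5, Il1f6, Il1f8 and Il1f10 were listed at 0 in all 4 libraries. The ratio of Il1f9 was 0.82 in young mice and 1.35 in adult mice, past 2-fold.

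**Figure D3:**
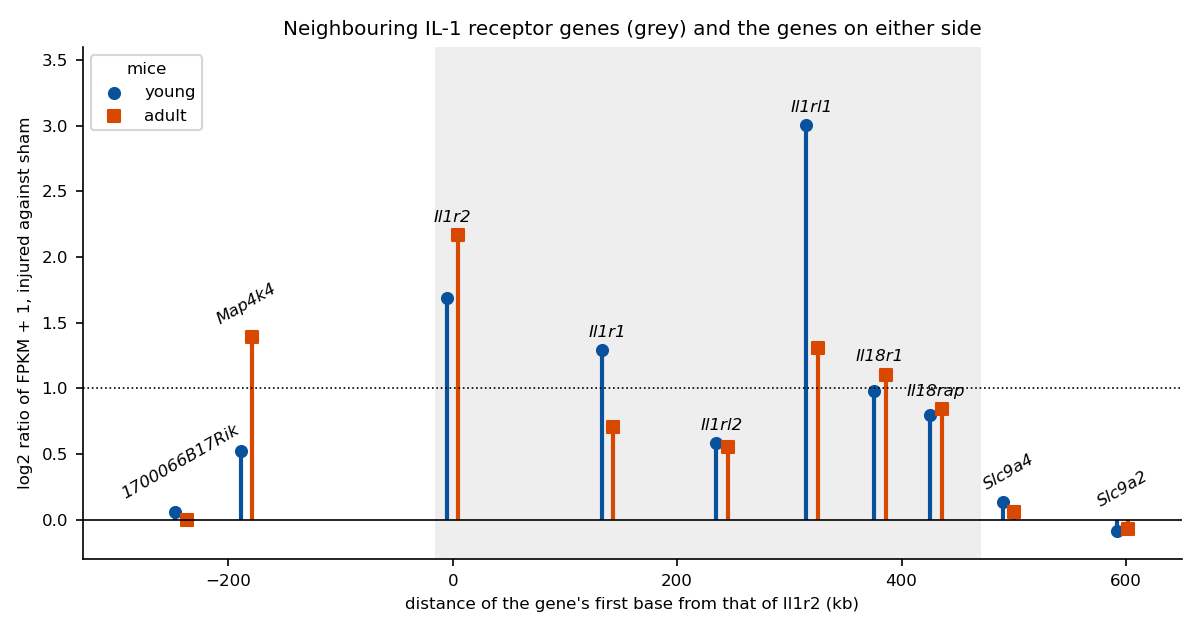
Log2 ratio of FPKM + 1 for injured against sham cartilage (vertical axis, dotted line at 2-fold) in young (circles) and adult mice (squares), by distance in kb from the first base of Il1r2 (horizontal axis). The 6 neighbouring receptor genes in the grey band all lie above 0 at both ages, with Il1rl1 highest at 3.00 in young mice. The median of all genes tested was 0.00 (young) and 0.14 (adult). The exchanger genes to the right were at 0.266 FPKM or less in every library, where this ratio is near 0 by construction.

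The other genes of the pathway were described by lists. The inflammasome and processing list held 16 genes, of which 4 rose in young mice, 5 rose in adult mice and 0 were lower by 2-fold. Casp1, which cleaves the precursors of IL-1β and IL-18, went from 0.530 to 4.87 FPKM with injury in young mice (log2 ratio 1.94) and from 0.671 to 4.59 FPKM in adult mice (1.74). Casp4 (1.95 and 1.77), Gsdmd (1.65 and 1.18), whose product forms the pores through which IL-1β leaves the cell, and Mefv (1.66 and 1.47) rose at both ages. The adult ratio of Gsdmd was no longer 2-fold with median-of-ratios scaling (0.95) or quantile normalization (0.82). Aim2, a sensor of DNA, rose in adult mice (1.09, and 0.90 with quantile normalization) and had 0.91 in young mice. Nlrp3, the best known inflammasome sensor, reached 1.10 and 1.16 FPKM in injured cartilage, with ratios of 0.94 and 0.91. The median of the list was 0.81 (young) and 0.67 (adult), and the most abundant of its genes was Capn2, a calpain, at 36.5 to 69.4 FPKM. The counts of 4 and 5 became 7 and 7 on the TPM scale, 10 and 9 with 0.1 FPKM added, and 1 and 0 with 5 FPKM added, and the adult count was 3 with quantile normalization.

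Among 20 genes of receptor signalling, Myd88 and Nfkbiz rose at both ages and the other 18 did not pass 2-fold at either. Nfkbiz, an IL-1-induced regulator of NF-κB, rose from 3.14 to 7.77 FPKM in young mice (log2 ratio 1.08) and from 2.66 to 12.1 FPKM in adult mice (1.84). Myd88, the shared adaptor, had ratios of 1.19 and 1.15, of which the adult value was no longer 2-fold with median-of-ratios scaling (0.88). The list median was −0.00 (young) and 0.47 (adult), and the adult median was 0.25 after median-of-ratios scaling. Nfkbia, the most abundant gene of the list, had ratios of 0.47 and 0.08.

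Of 20 genes that IL-1 is known to induce in chondrocytes and fibroblasts, 12 rose in young mice and 15 rose in adult mice. As a median, their log2 ratios were 1.43 (young) and 2.22 (adult). With 5 FPKM added the counts were 7 and 9 and the medians 0.54 and 0.96, and with 0.1 FPKM added the counts were 16 and 18 and the medians 2.15 and 3.70. Mmp13, the main collagenase of cartilage, was at 25.3 FPKM without and 473.7 FPKM with injury in young mice, and at 21.2 and 518.2 FPKM in adult mice. Timp1, an inhibitor of such proteases (2.16 and 3.10), the gelatinase gene Mmp9 (1.76 and 2.28), the aggrecanase gene Adamts4 (1.24 and 1.51) and Ptgs2, the inducible cyclooxygenase (1.68 and 1.94), rose at both ages. Lif, a cytokine gene, rose in adult mice (1.06, and 0.93 with quantile normalization), and the chemokine gene Cxcl5 was listed at 0 in both shams and had 2.08 (young) and 2.87 FPKM (adult) with injury. Nos2, the inducible nitric oxide synthase, reached 0.341 FPKM after injury in young mice and 5.17 FPKM in adult mice. Set side by side, the injured libraries had 7 of these 20 genes at least 2-fold lower in young mice, which were Mmp3 (−2.14), Nos2 (−2.20), Cxcl1 (−1.02), Cxcl2 (−1.60), Lcn2 (−1.73), Saa3 (−1.90) and Steap4 (−1.36), and 1 higher, Ccl2 (1.32). Mmp3 was already higher in adult sham (41.2 FPKM) than in young sham (4.99 FPKM), and its injury ratio was larger in young (4.67) than in adult mice (4.0). The count of 7 was unchanged by median-of-ratios scaling and by quantile normalization, and it was 9 on the TPM scale, where each library has the same sum, 11 with 0.1 FPKM added and 4 with 5 FPKM added. Other stimuli also induce these genes, and leukocytes express several of them.

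The axes downstream of IL-18 and IL-33 were examined as well. IL-18 is known, together with IL-12, for eliciting IFN-γ from T and NK cells. Of the 10 genes of this axis, 7 stayed below 1 FPKM in all 4 libraries and could not reach 2-fold on the scale of FPKM + 1, and the other 3 did not pass it. With 0.1 FPKM added, 3 of the 10 were higher by 2-fold at each age. Il15ra, a receptor subunit for IL-15 and the most abundant gene of the list, was between 10.3 and 11.4 FPKM. Ifng itself was listed at 0 in 3 libraries and at 0.032 FPKM in adult injured cartilage, and Il12b reached at most 0.047 FPKM. Of 11 genes of the type 2 response that IL-33 can drive, Il4ra and Il13ra1 rose at both ages, and Chil3 rose in adult mice, just past 2-fold (1.02, and 0.75 with median-of-ratios scaling). With 0.1 FPKM added, 7 genes of the list were higher by 2-fold in young and 6 in adult mice. Retnla, a gene of alternatively activated macrophages, went from 0.894 to 2.57 FPKM in young mice (log2 ratio 0.91) and from 2.53 to 1.02 FPKM in adult mice (−0.80), neither of them 2-fold, while the adult value passed 2-fold with median-of-ratios scaling (−1.0) and quantile normalization (−1.18), and the young value on the TPM scale (1.05). The receptor genes Il4ra (14.1 and 16.3 FPKM) and Il13ra1 (16.0 and 16.9 FPKM) were at similar levels in the young and adult injured libraries. Il4, Il5 and Il13 were at or near 0 in all libraries, with 0.126 FPKM as the highest value. None of the 10 genes above 0 differed 2-fold between the injured libraries, whereas with 0.1 FPKM added 2 were higher in young mice, Retnla (1.25) and Il4, which was listed at 0 in adult injured cartilage.

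**Figure D4:**
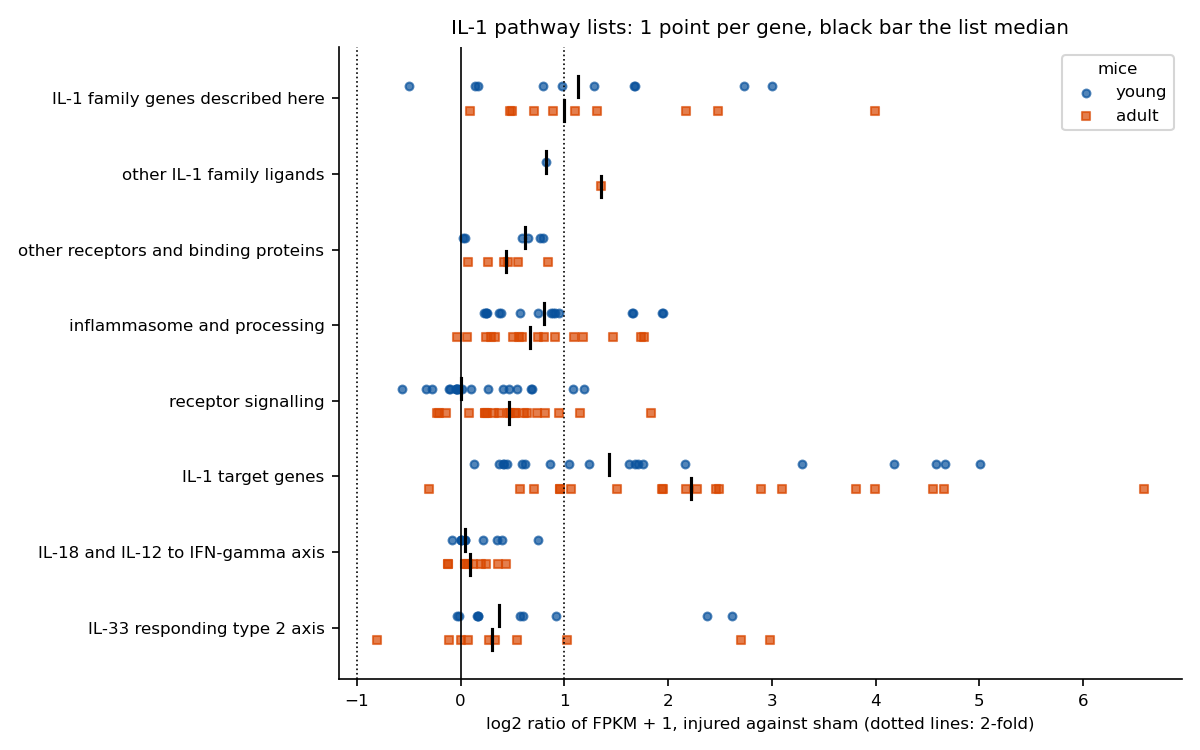
Log2 ratio of FPKM + 1 for injured against sham cartilage (horizontal axis, dotted lines at 2-fold) for the 10 IL-1 family genes and 7 other lists of the pathway, with 1 point per gene above 0 in at least 1 library, young mice as circles and adult mice as squares. Black bars are list medians, which for the IL-1 target genes are 1.43 (young) and 2.22 (adult), and for receptor signalling −0.00 and 0.47.

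Markers of other cell types also differed between the libraries. The summed FPKM of 10 macrophage and monocyte markers went from 185.2 to 1599 with injury in young mice and from 262.2 to 1397 in adult mice. Per 1000 FPKM of this sum, Il1b was at 2.12 without and 5.17 with injury in young mice, and at 1.73 and 15.9 in adult mice. Il1rl1 was at 1.23 and 5.53 in young mice and at 0.594 and 1.34 in adult mice. Il1rn (1.24 and 1.82, then 0.937 and 4.27) and Il18r1 (0.198 and 0.652, then 0.149 and 0.884) were also higher with injury at both ages on this scale. Relative to this sum Il1r1 was lower in injured than in sham cartilage, at 4.07 against 11.2 in young and 5.21 against 15.5 in adult mice. Il1r2 stood at 2.49 without and 2.31 with injury in young mice, and at 2.42 and 4.55 in adult mice. The sum is made up mostly of Lyz2, the lysozyme gene, which had 1270 (young) and 1090 FPKM (adult) after injury. Among single markers, after injury Adgre1 was at 30.3 (young) and 16.8 FPKM (adult) and Mrc1 (CD206) at 20.0 and 7.10 FPKM, while Cd14 was at 21.6 and 42.5 FPKM. Of the neutrophil markers, 10 in number, the sum went from 1179 to 2431 FPKM with injury in young mice and from 1554 to 1887 FPKM in adult mice. S100a8 and S100a9 make up most of it. Of these markers 4 rose at the young and 2 at the adult age, and the list had medians of 0.97 and 0.42 (log2). Those that rose in adults were Csf3r and Cxcr2, and Mpo went from 16.0 to 14.0 FPKM in young mice. Csf3r, a neutrophil receptor gene, went from 2.05 to 9.37 FPKM in young mice and from 1.96 to 10.9 FPKM in adult mice. Cxcr2 went from 1.35 to 3.54 FPKM and from 0.673 to 3.69 FPKM. The sum of 7 endothelial markers went from 15.4 to 75.3 and from 17.3 to 62.5 FPKM, and that of 7 fibroblast and synovial markers from 840.7 to 1504 and from 567.8 to 1658 FPKM. The latter sum is mostly Col1a1 and Col3a1, and Dpt, another of its genes, went down from 55.2 to 35.0 FPKM (young) and from 78.8 to 36.7 FPKM (adult). The part of these cells in the results was not tested.

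Mast cells and T cells are known to carry ST2. The summed FPKM of 9 mast cell markers reached at most 8.54 and that of 10 T and NK cell markers at most 10.1, both in adult injured cartilage. Of the mast cell markers, Cpa3, Cma1, Mcpt4, Tpsb2, Tpsab1, Fcer1a, Ms4a2 and Kit were below 1 FPKM in all 4 libraries, and Cpa3 was at 0.551 FPKM in young injured and 0.590 FPKM in adult injured cartilage. The other, Hdc, which neutrophils also express, reached 3.46 and 5.80 FPKM. The T cell markers Cd3e, Cd3d and Cd3g were between 0 and 0.667 FPKM, and the highest of the T and NK cell markers was Nkg7 with 3.80 FPKM in adult injured cartilage. Of 3 keratinocyte genes, Krt5 and Krt14 were listed at 0 in all 4 libraries, and Krt10 was between 1.14 and 2.33 FPKM.

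The genes with the most similar pattern over the 4 libraries were found by the distance between centred log2(FPKM + 1) values over the 12418 genes whose mean reached 1 FPKM. For Il1rl1 these were Mrc1, the macrophage mannose receptor (distance 0.31), Rtp4 (0.36) and Ifit1 (0.38), both of which interferons induce. For Il1b they were Lcn2 (0.70), Fn1 (0.73) and Cfb (0.74), which encode lipocalin-2, fibronectin and complement factor B. Il1rn was nearest to Lrg1 (0.14), Il1r2 (0.22) and Cd74 (0.24), and Il1r2 to Spi1 (0.14), Cyb561 (0.14) and Muc1 (0.16). S1pr3, Gm19705 and Kcnn4 were nearest to Il1r1, at distances of 0.09 to 0.11. Il1rap was followed most closely by Gxylt2, Dsel and Pank3 (0.04 to 0.05) and Il18 by Cd59b, Ipp and Adh5 (0.02 to 0.03). With 4 libraries many genes share a pattern, and these distances are a description.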

How the data were processed

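Total RNA of pooled mouse articular cartilage was poly-A selected and made into strand-specific libraries, which were sequenced as paired ends (2 × 100 bases). The authors deposited FPKM per gene and library on mm10. The submitters' processing notes list HISAT2 2.1.0, StringTie 1.3.4d, STAR and SAMtools, without their roles. FPKM are divided by transcript length and library size, and whole fragment numbers were not recovered. Depth was estimated from the steps in the lowest values of FPKM times transcript length (GENCODE M21) over 17523 genes with 1 transcript, and fragment numbers given for single genes are conditional on it.

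From the FPKM, log2 ratios of FPKM + 1 were calculated over 18181 genes (those not at 0 throughout), with 2-fold as the threshold. With 1 library per group there are no p-values or standard deviations. The members and lists were chosen with earlier results of these data known. The text names all members and, chosen by rule, list genes that passed 2-fold after injury or were most abundant in their list, defining markers of other cell types, and the 3 genes nearest in pattern to each member with a mean of at least 1 FPKM. Other list, marker and neighbouring genes, such as Nlrp3, Retnla, Il18bp, Ifng and Map4k4, were named after their values were seen. Of the markers, 1 had no entry in the table. From the lists, 1 gene was left out and is not reported here. Alternatives were another pseudocount, filter, scaling or threshold. Scripts were tested on simulated data. Python 3.11.15, numpy 2.4.6, pandas 2.3.3 and matplotlib 3.10.9 were used.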

Additional observations from a re-analysis of the deposited data

Results flagged for a closer look

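Il1rap moved in opposite directions at the 2 ages, with a log2 ratio of FPKM + 1 for injured against sham cartilage of −0.50 in young and 0.50 in adult mice. Each value rests on 1 library per group, and the difference was not tested. The direction at each age was the same under every alternative pseudocount and scaling, with the adult value lowest after quantile normalization at 0.14. Retnla, a gene of the type 2 list, likewise had 0.91 in young and −0.80 in adult mice, which was also not tested. Only members and named list genes were screened for opposite directions. Of the 20 receptor signalling genes, 10 had a ratio above 0 in young and 17 in adult mice. The general level centred on −0.04 in young and 0.23 in adult mice.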

How the results depend on the processing

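Counts of members and of all genes at 2-fold are given here where they moved by more than 1.5 times. With 0.1 FPKM added in place of 1, 8 members were higher after injury in young mice, 2 were lower in adult than in young sham, and 3 were lower in injured cartilage of young mice. All genes were then 1817 higher and 768 lower for injury in young mice, 2882 and 656 for the adult injury, 1040 and 3840 between the shams, and 1503 and 843 for young against adult injured cartilage. With 5 FPKM added, 2 members rose in young and 3 in adult mice and 0 were lower in adult sham, and the same 4 comparisons of all genes gave 343 and 79, 434 and 128, 225 and 670, and 210 and 143. On the TPM scale 2 members were lower in young injured cartilage, and for all genes 430 were lower after injury in young mice, 2009 higher after injury in adult mice and 625 lower in young injured cartilage. Median-of-ratios scaling put 1 member, Il1r1, higher and 0 lower in adult sham, with 455 genes lower after injury in adult mice and 972 higher and 1009 lower in adult sham. Quantile normalization likewise gave 1 member higher and 0 lower, with 725 and 489 genes for injury in adult mice and 916 and 959 in adult sham. At 1.5-fold 1 member was higher in adult sham and 3 were lower in young injured cartilage, and at 3-fold 3 members rose in adult mice and 0 were lower in adult sham or in young injured cartilage. All genes were not counted at 1.5-fold or 3-fold, so these member counts have no share to be read against. On the TPM scale all values are larger than in FPKM, so the same added 1 weighs less there. The cause of these moves was not tested.

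Of 232 recomputed log2 ratios of members, 201 kept their direction and side of 2-fold, 14 newly passed it, 9 no longer did and 8, all small, changed sign. The filter of at least 1 FPKM in 1 library leaves each ratio as it is, so its values are among the 201 by construction. The age differences of Il1b and Il1rl1 between the injured libraries kept their direction under each alternative. Without a second library per group, leaving out a library was not possible. No paired analysis was possible because each group has 1 library. Depth limits Il1a, Il1b, Il1rn, Il1r2, Il33, Il1rl1 and Il18r1, which rest on few fragments in sham cartilage, and FPKM per gene do not separate soluble from membrane-bound forms.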
